A study of Mus musculus with 4 samples.

Results

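Some stretches of open chromatin were called in both wild-type (WT) LN Treg libraries and in neither Il2ra mut/mut library. They were chosen by the peak calls alone. The peaks of the 4 libraries were merged wherever they overlapped by at least 1 bp, and merged regions on the 19 autosomes with a peak in WT replicates 1 and 2 and no peak in Il2ra mut/mut replicates 1 and 2 were kept. Stretches of chromosome 5 (14 to 16 Mb) and chromosome 14 (52.4 to 54.3 Mb) were left out. This left 7097 WT-pair regions out of 269234 merged regions, or 2.64%. For comparison, 37581 merged regions (14%) were called in all 4 libraries.

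Each library was made from 50000 sorted Foxp3+ CD4+ Treg cells by ATAC-seq, which tags open DNA with adapters through the transposase Tn5. The cells came from the LNs of naive, unstimulated female C57BL/6 mice 6 to 8 weeks old. All animals carried the Foxp3-RFP reporter (Foxp3 Rfp/Rfp), and the RFP+ cells were sorted. One group was otherwise WT, and the other was Il2ra mut/mut, with a point mutation in the alpha chain of the IL-2 receptor (CD25) that weakens but does not abolish IL-2 signalling. There were 2 libraries per genotype, called WT1, WT2, MUT1 and MUT2 here. The mutation is in every cell of the animal, so a difference in Treg cells cannot be told apart from one that arose in other cells.

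IL-2 binds a receptor of alpha, beta and common gamma chains on Treg cells and activates JAK kinases and STAT5, which maintains Foxp3, CD25 and survival genes. Treg cells of LNs include resting cells, which keep factors of naive T cells such as SATB1, BACH2, TCF1 (Tcf7), LEF1 and FOXP1, and effector cells, which lower them. Most elements that differ in accessibility between T cell states lie far from promoters, in introns or between genes.

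The labelled cell type was checked on the open promoters, and those of all 7 markers tested for Treg cells were called in each library. These were Foxp3, Il2ra, Ctla4, Ikzf2 and Il2rb, with Cd4 and Cd3e, which other CD4 T cells share. Of 5 markers each, 1 B cell promoter was called in every library, 0 or 1 myeloid promoters and 1 or 2 CD8 T and NK cell promoters. The promoter of the CD8 gene Cd8b1 was called in every library. Its percentile ranks by −log10 p were 84.2, 84.5, 66.2 and 76.5 in WT1, WT2, MUT1 and MUT2, beside 47.8, 78.5, 72.6 and 79.7 for Foxp3. The deposited lists held 112569, 126761, 122776 and 142732 peaks in WT1, WT2, MUT1 and MUT2. The number of reads per library is unknown, but the fold enrichments fitted summits of whole reads, with background levels of 0.974, 0.979, 1.23 and 1.06 reads in the same order. The weakest called summit held 5 reads in WT1, WT2 and MUT2 and 6 in MUT1. The lists overlapped in length between the genotypes, but both background levels were higher in the Il2ra mut/mut libraries than in the WT libraries. An effect of this difference on the calls cannot be told apart from one of genotype.

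The sequences around the summits of 9 WT-pair regions are shown. These regions lie at genes on which the results below turn or are among the strongest of the set. They were chosen after their values were seen, and all 9 hold a word marked below. WT-pair regions without such a word are not shown. Among these are the strongest one at Satb1 (chr17:51763279-51763993), the one at Smg1 and every one at Foxp1. The 9 therefore do not show how frequent the words are. Each is 201 bases of the plus strand of GRCm38 (RefSeq GRCm38.p6, the same coordinates as mm10). Capitals mark the words CAGGAAG (ETS), TGTGGTT (RUNX), CTTTGAT (TCF-LEF), GGGNGTG (KLF), TTCNNNGAA (STAT), GTAAACA (FOXO) and AGGGGGC (CTCF), searched on both strands. Words may overlap: in the Satb1 region shown first a STAT word and an ETS word share bases.
Satb1, chr17:51894377-51894577: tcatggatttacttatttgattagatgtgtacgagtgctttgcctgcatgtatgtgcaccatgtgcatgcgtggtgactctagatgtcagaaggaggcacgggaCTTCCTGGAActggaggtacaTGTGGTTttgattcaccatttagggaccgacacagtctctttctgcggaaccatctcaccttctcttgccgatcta
Satb1, chr17:51800305-51800505: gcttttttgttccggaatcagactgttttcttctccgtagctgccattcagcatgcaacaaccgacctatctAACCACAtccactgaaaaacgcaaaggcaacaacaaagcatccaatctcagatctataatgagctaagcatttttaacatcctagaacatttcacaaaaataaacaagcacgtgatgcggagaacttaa
Tgfbr3, chr5:107279355-107279555: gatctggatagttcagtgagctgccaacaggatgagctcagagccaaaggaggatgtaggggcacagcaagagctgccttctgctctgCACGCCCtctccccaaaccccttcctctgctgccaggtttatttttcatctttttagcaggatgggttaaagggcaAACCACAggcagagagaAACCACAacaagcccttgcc
Tgfbr3, chr5:107165864-107166064: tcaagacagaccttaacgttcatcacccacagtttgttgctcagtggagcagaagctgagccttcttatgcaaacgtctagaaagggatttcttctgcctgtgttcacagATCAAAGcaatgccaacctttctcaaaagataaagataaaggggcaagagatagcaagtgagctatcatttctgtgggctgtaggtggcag
Bach2, chr4:32247773-32247973: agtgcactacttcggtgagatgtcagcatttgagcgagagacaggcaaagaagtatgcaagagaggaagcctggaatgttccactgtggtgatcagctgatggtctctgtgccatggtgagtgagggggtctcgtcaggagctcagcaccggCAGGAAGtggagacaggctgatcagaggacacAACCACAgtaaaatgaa
Tcf7, chr11:52305394-52305594: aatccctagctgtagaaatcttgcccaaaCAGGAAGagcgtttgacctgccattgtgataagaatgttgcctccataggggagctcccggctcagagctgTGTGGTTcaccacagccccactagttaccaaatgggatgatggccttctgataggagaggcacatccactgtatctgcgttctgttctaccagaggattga
Bcl2, chr1:106602659-106602859: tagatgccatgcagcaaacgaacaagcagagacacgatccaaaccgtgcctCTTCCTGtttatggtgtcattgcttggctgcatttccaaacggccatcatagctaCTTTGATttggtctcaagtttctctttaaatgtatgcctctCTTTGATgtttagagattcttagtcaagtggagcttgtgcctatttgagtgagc
Prss43, chr9:110825895-110826095: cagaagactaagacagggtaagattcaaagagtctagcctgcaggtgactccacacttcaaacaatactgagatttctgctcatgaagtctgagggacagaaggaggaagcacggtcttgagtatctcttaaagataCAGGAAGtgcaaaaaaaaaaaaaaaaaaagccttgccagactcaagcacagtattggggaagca
Irgc1, chr7:24446669-24446869: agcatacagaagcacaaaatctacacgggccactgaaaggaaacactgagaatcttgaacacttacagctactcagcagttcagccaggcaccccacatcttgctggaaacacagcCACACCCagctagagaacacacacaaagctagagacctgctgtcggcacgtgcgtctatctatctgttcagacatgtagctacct

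The Satb1 region shown first held an ETS, a RUNX and a STAT word, and the second a RUNX word. The Tgfbr3 region near the start of the gene held 2 RUNX words and a KLF word, and the other held a TCF-LEF word. The Bach2 and Tcf7 regions each held an ETS and a RUNX word, and the Bcl2 region held 2 TCF-LEF words and an ETS word. The Prss43 and Irgc1 regions held an ETS and a KLF word. Over the 81894 regions called in exactly 2 libraries or in all 4, windows of this length held the ETS word in 14.2%, RUNX in 6.36%, TCF-LEF in 3.33%, KLF in 16.1%, STAT in 5.95%, FOXO in 2.72% and CTCF in 5.05%. A match of a word is a description of the sequence and shows no binding.

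The number of WT-pair regions was read against the 4 crossed pairs, each of 1 WT and 1 Il2ra mut/mut library, which share their libraries with the WT pair. WT1 and MUT1 alone shared 5153 regions, WT1 and MUT2 6173, WT2 and MUT1 7010, and WT2 and MUT2 9261, or 1.91%, 2.29%, 2.60% and 3.44% of all merged regions. Both Il2ra mut/mut libraries alone shared 9621 (3.57%). The WT-pair count thus lay within the range of the crossed pairs. Each library was also cut to its top 112569 peaks, the length of the WT1 list, which lost none. Peaks tied in −log10 p at the cut were kept by order of chromosome and position, so the cut was uneven over the genome. After it, the WT pair held 7346 regions, above all 4 crossed pairs (5105 to 6498) and the Il2ra mut/mut pair (7078). With only peaks of a −log10 q of at least 3, it held 3299 regions, below 3 of the 4 crossed pairs (3741, 2391, 5864 and 4462 in the order above) and below the Il2ra mut/mut pair (7761). The place of the WT pair among the pairs thus depended on how peaks were selected. The 4 libraries can be paired in only 3 ways, so no share of pairings under 0.333 can be reached, and no test was made.

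**Figure D1:**
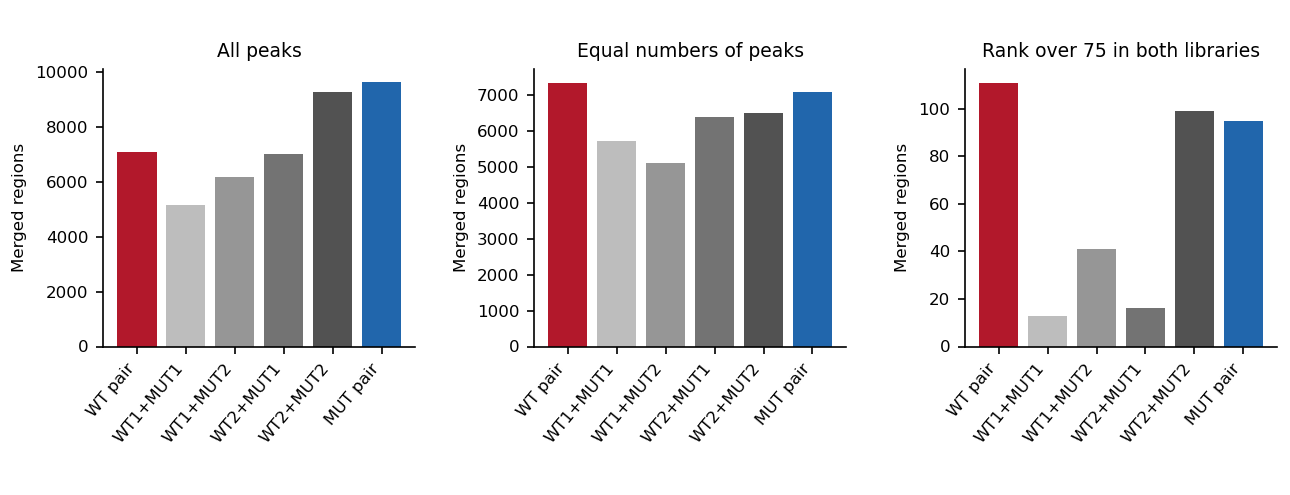
Number of merged regions (y axis) called in exactly the 2 libraries of each pair (x axis). The left panel uses all peaks, where the WT pair (7097) lies between the lowest and highest crossed pairs (grey), the middle panel equal numbers of peaks per library, where it is highest (7346), and the right panel only regions that rank over 75 in both libraries (111 for the WT pair).

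The members were weaker than regions called in all 4 libraries, but close to the median called peak of each WT library. Peak strength was taken from the −log10 p that the peak caller gave each peak, which also decided whether it was called, so it describes the members and tests nothing. The median member had a −log10 p of 6.04 in WT1 and 6.02 in WT2, with 8 reads at the summit in both libraries and an interquartile range of 7 to 9 reads. Over all called peaks of these libraries the medians were the same, 6.04 and 6.02 with 8 reads in each. Regions called in all 4 libraries had medians of 12.7 and 20.3 in WT1 and WT2, with 14 and 20 reads. The highest member summit held 22 reads in WT1 and 29 in WT2. A typical member is therefore a place where a few more reads than the threshold fell in both WT libraries.

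Few members stood at the threshold itself, but more stood near it. Summits within 1 read of the weakest called peak were those of 1211 members in WT1 (17.1%) and 1100 in WT2 (15.5%). Such summits were not particular to the members: of the regions called in WT1 and MUT1 only, 20.6% had one in WT1. At the lowest −log10 p of the list stood 75 of the 7097 members in WT1 (3.29) and 78 in WT2 (3.27), where 1.17% and 1.23% of all peaks of these libraries stood. Just outside the set, 4063 regions were called in both WT libraries and MUT1 and 6072 in both WT libraries and MUT2, of which 34 and 34 stood at the lowest −log10 p of MUT1 (3.54, 6 reads) and MUT2 (3.10, 5 reads). A peak of an Il2ra mut/mut library lay within 200 bp of 1416 members (20%) and within 1 kb of 3948 (55.6%), and the median gap was 788 bp. The lists hold called peaks alone, so the level in the Il2ra mut/mut libraries at a member is not known beyond its lying under that library's threshold. Absence of a call is not closed chromatin.

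The upper end of the set held more regions than in any crossed pair. Each peak was ranked within its own library by −log10 p, with 100 the strongest, and the lower of the ranks in WT1 and WT2 was taken. This rank was over 50 for 941 members, 13.3% (95% Wilson interval 12.5 to 14.1, which covers counting error only), against 7.66 to 14.1% in the crossed pairs. It was over 75 for 111 members (1.56%, 1.30 to 1.88), against 13, 41, 16 and 99 regions (0.252%, 0.664%, 0.228% and 1.07%) in the crossed pairs in the order above and 95 in the Il2ra mut/mut pair. It was over 80 for 29 members, against 0, 3, 1 and 10 in the crossed pairs. WT2 and MUT2, the pair of libraries with the longest lists, came closest to the WT pair at ranks over 75 and over 80.

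The strongest member lay 0.478 kb upstream of the TSS of Prss43, a serine protease gene expressed in testis, at chr9:110825747-110826212, with 18 reads at its summit in WT1 and 25 in WT2. The nearest peaks of MUT1 and MUT2 were 38200 and 43921 bp away, and only 59 merged regions lay in its 1 Mb window. The next in rank lay 16.2 kb upstream of Smg1, a kinase gene of nonsense-mediated decay, with 18 and 20 reads. A region 0.859 kb upstream of Irgc1 (chr7:24446541-24446994), of the immunity-related GTPase family, had 16 and 22 reads. These 3 regions reached or passed the median summit of regions called in all 4 libraries, and at each the higher count was in WT2.

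Of the other members among the strongest 12, the regions at Zfp800 (intron, 15 and 21 reads), C1d (20.7 kb upstream, 16 and 18) and Fam76b (146 kb downstream, 16 and 18) lay 59624, 20486 and 36133 bp from the nearest Il2ra mut/mut peak. The regions at Slc30a7, a zinc transporter (intron, 16 and 18 reads), and Ifngr2, which encodes a chain of the receptor of interferon-gamma (8.14 kb upstream, 15 and 17 reads), lay 281 and 99 bp from an Il2ra mut/mut peak. Pde4d, a phosphodiesterase gene, had 22 and 17 reads, the one case of the 12 with a higher count in WT1. At Speer4f1 (19 and 19 reads) 50% of the 31-base words tested around the summit occur more than once in the genome, so reads there may belong to other copies. Gm9887 (15 and 17 reads) and Kif21b (14 and 18 reads) complete the 12. None of the 12 lay in a window of dense peaks, described below.

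Within 1 kb of the TSS of a protein-coding gene lay 326 members, at 319 genes. After Prss43 and Irgc1, the strongest were at Tcf20, a transcriptional coregulator gene, where the region covered the TSS and had 13 reads in WT1 and 16 in WT2, and at Frmd4b, with 13 and 19. Basp1, a gene of a membrane protein, had 12 and 18 reads, and Irgm1, an interferon-induced GTPase of the same family as Irgc1, 12 and 13. The Irgm1 region lay 209 bp from a MUT2 peak and in a window of 399 regions. Promoter members were thus spread singly over many genes.

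Most members were distal. Within 1 kb of any annotated TSS were 7.21% (6.64 to 7.84), a further 7.38% were at 1 to 3 kb, 3.86% in exons, 39.1% (38 to 40.2) in introns and 42.5% (41.3 to 43.6) between genes. The median distance to the closest annotated TSS of any gene was 20903 bp, and 67.8% lay more than 10 kb from one. The crossed pairs had 4.56 to 7.75% within 1 kb, 38.4 to 39.9% in introns and 41.7 to 46.5% between genes, so that the members' shares stood within their range. Regions called in all 4 libraries had 33.7% within 1 kb and 25.7% between genes. By place, then, the members resembled other regions called in only 2 libraries, and most of all those of WT2 and MUT2 (7.75% within 1 kb, median distance 20939 bp).

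Peaks were very unevenly spread over the genome. Windows of 1 Mb that held 300 or more merged regions, a limit chosen after the values were seen, were 233 of 2377 windows with a region and held 46.8% of all merged regions. They held 3851 members (54.3%, 53.1 to 55.4), against 54.2 to 70.8% of the regions of the crossed pairs and 22.1% of those called in all 4 libraries. Inside these dense windows 3.17% of members lay within 1 kb of a TSS, and outside them 12% (10.9 to 13.2) of the 3246 members did. The origin of the dense windows was not tested.

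The genes closest to the most members had most of these members in dense windows, with the smallest parts at Zfhx3 (30 of 40) and Hs3st4 (33 of 41). Auts2 was the closest gene to 127 members, Rbfox1 to 88, Kcnma1 to 67, Bnc2 to 46, Tcerg1l and Zfp462 to 45 each, Tox3, Sall1 and Ptprm to 44 each, Fam19a5 to 42, Hs3st4 to 41 and Zfhx3 to 40. Many of these are long genes best known from neurons, such as Rbfox1, a splicing regulator, and Kcnma1, a potassium channel. Being closest did not mean lying inside the gene. At Auts2 100 of the 127 members lay between genes, and members reached up to 700 kb from its closest TSS. At Bnc2, by contrast, 32 of the 46 lay in introns. The members were a small part of the regions closest to these genes: 127 of 1768 at Auts2 (7.18%) and 88 of 1934 at Rbfox1 (4.55%). The crossed pairs had 54 to 79 regions at Auts2, 67 to 92 at Rbfox1 and 29 to 75 at Kcnma1. With a −log10 q of at least 3 the counts fell to 48 at Auts2, 20 at Rbfox1, 34 at Kcnma1, 20 at Bnc2 and 10 to 24 at the other 8 genes, so that Kcnma1 came before Rbfox1. Members at these genes had median summits of 7 or 8 reads, and the median called peak of each WT library had 8.

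In all, 2739 of the 17167 genes closest to any region (16.0%) were closest to at least 1 member, and 510 (2.97%) to 3 or more. The crossed pairs had 455, 511, 518 and 649 genes with 3 or more regions (2.65%, 2.98%, 3.02% and 3.78%), and the Il2ra mut/mut pair had 655 (3.82%). Genes with 3 or more members and no region of any other pair numbered 14, against 1, 0, 0 and 18 in the crossed pairs, so that WT2 and MUT2 had more of these than the WT pair. A run of consecutive merged regions that were all members occurred 256 times, against 144 to 332 in the crossed pairs. The longest was 4 regions over 3.34 kb at Auts2, followed by 3 at Speer4f1 (1.78 kb) and 3 at 1700016K19Rik (9.46 kb).

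Outside dense windows the picture changed. The 12 genes with the most members there, which were chosen after their values were seen, were Ntrk2 and Themis3 (12 each), Satb1, Ets1, Zfhx3 and Magi1 (10 each), Tgfbr3, Bach2, Foxp1 and Trpm3 (9 each), and Ccdc171 and Pdzrn3 (8 each). Zfhx3 was also among the genes named above, and its 10 members here are those outside dense windows. Satb1, Ets1, Bach2 and Foxp1 encode transcription factors of T cells, and Tgfbr3 encodes betaglycan, a coreceptor of TGF-beta. At Satb1 10 of 48 regions were members (20.8%), against 0, 0, 0 and 1 in the crossed pairs and 1 in the Il2ra mut/mut pair. At Tgfbr3 9 of 22 regions were members (40.9%), against 0 in each crossed pair and in the Il2ra mut/mut pair. At Bach2 9 of 70 were members (12.9%), against 0, 0, 0 and 3, and at Foxp1 9 of 98 (9.18%), against 0, 1, 2 and 4. At Ets1 10 of 142 were members (7.04%), against 2, 3, 2 and 8, and at the other 7 genes the highest crossed pair had 6 to 23 regions.

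The calls in each library at these genes are the same calls that chose the members, so they describe the genes and support nothing further. Regions closest to Satb1 numbered 29 in WT1 and 43 in WT2 against 17 in MUT1 and 19 in MUT2. For Tgfbr3 the numbers were 15 and 19 against 4 and 9, for Bach2 48 and 63 against 33 and 40, and for Foxp1 65 and 86 against 46 and 63. For Ets1 they were 77 and 85 against 69 and 81, so that MUT2 had more than WT1.

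**Figure D2:**
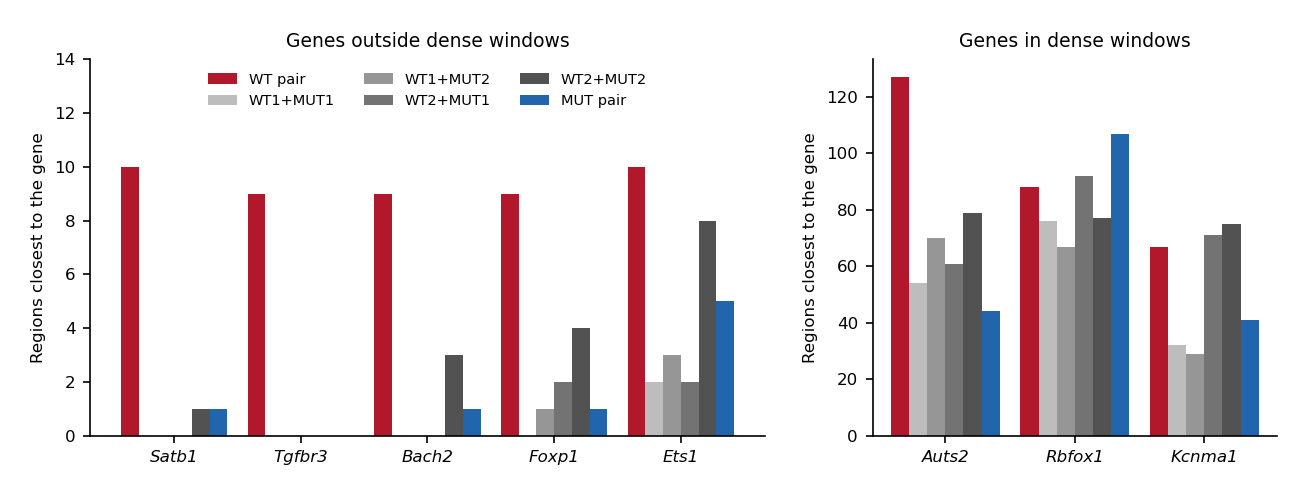
Number of regions closest to each gene (y axis) that were called in exactly the 2 libraries of a pair (bars, WT pair red, crossed pairs grey, Il2ra mut/mut pair blue). Satb1, Tgfbr3, Bach2 and Foxp1 had 9 or 10 WT-pair regions and at most 4 of any crossed pair, while Auts2, Rbfox1 and Kcnma1 in dense windows had many of every pair.

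Satb1 encodes a chromatin organizer that is high in thymocytes and naive T cells. Its 10 members lay up to 74.9 kb downstream and up to 246 kb upstream of the closest of its annotated TSSs. The downstream distance is from a start inside the gene. The strongest, at chr17:51763279-51763993 inside the gene, had 13 reads in WT1 and 18 in WT2. The region 61.0 kb upstream (chr17:51894325-51894681, the first sequence shown) had 11 and 16 reads and no Il2ra mut/mut peak within 9238 bp. One member lay 0.542 kb upstream of the TSS with 8 and 14 reads, 328 bp from an Il2ra mut/mut peak. Across the 10, summits held 7 to 13 reads in WT1 (median 9) and 8 to 18 in WT2 (median 12), so several stood well above the weakest called peak.

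Tgfbr3 carried all of its 9 members within the gene, in introns for 6 of them, between 0.719 and 141 kb downstream of its TSS. The strongest, at chr5:107279340-107279656, had 13 reads in WT1 and 14 in WT2, with the nearest Il2ra mut/mut peak 9353 bp away. A region at chr5:107259491-107259970 had 11 and 14 reads, and one 2.01 kb from the TSS had 9 and 16. The member closest to the TSS was weaker, with 8 reads in each library, and lay 99 bp from an Il2ra mut/mut peak. The members outnumbered the 4 Tgfbr3 regions called in all 4 libraries.

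Bach2 encodes a repressor that restrains effector genes in T cells. Of its 9 members 7 lay in its introns and 2 upstream, and the strongest were at chr4:32247666-32248131 (10 reads in WT1 and 11 in WT2, 90 bp from an Il2ra mut/mut peak) and chr4:32341101-32341652 (10 and 12). Foxp1, a factor needed to keep naive T cells quiescent, carried its 9 members between 2.71 and 43.0 kb from its starts, with 12 and 11 reads at chr6:99395773-99396055 and 9 and 17 at chr6:99426759-99427278. The weakest Bach2 and Foxp1 members had 6 reads in WT1. At both genes members stood beside many regions common to all 4 libraries (29 and 39).

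**Figure D3:**
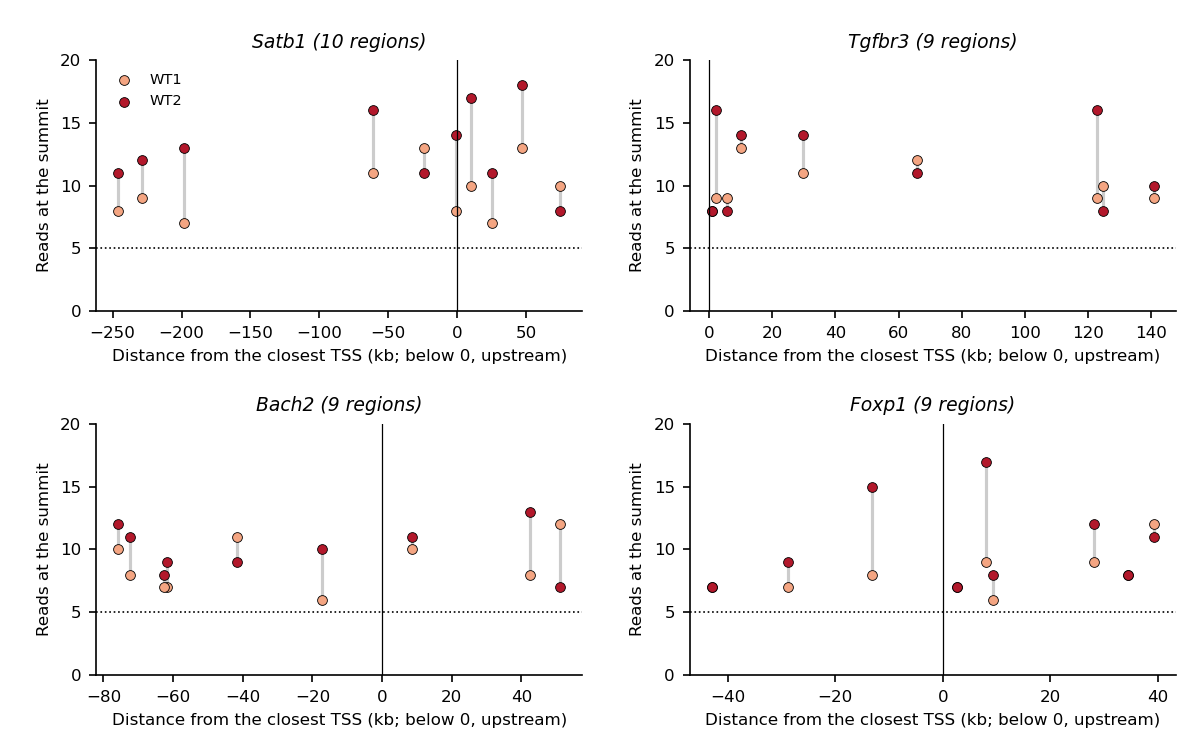
Reads at the summit (y axis) of each WT-pair region closest to Satb1, Tgfbr3, Bach2 or Foxp1 in WT1 (light) and WT2 (dark), by distance from the closest TSS of that gene in kb (x axis, below 0 upstream). The dotted line is the 5 reads of the weakest called peak in WT1 and WT2, and grey lines join the libraries. Satb1 members reach up to 13 and 18 reads, and Tgfbr3 members are all downstream of the TSS.

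By gene list, the members were most frequent at factors of resting and naive T cells. Of the 598 regions closest to these 16 genes, 43 were members (7.19%), against 2.64% over all regions. At least 1 member was at 13 of the 16 genes, against 16.0% of all genes with a region. These shares of genes are not alike, since the 16 genes had more regions per gene than the 17167 genes with 269234 regions. WT2 and MUT2 also had a region at 13 of the 16 genes, and the other crossed pairs at 1, 5 and 7. The crossed pairs had 1, 5, 15 and 26 regions there and the Il2ra mut/mut pair 12. Beside Satb1, Bach2 and Foxp1 these included Tcf7, Lef1, Klf7, Klf13 and Ccr7 with 2 each, and Foxo1, Foxo3, Klf3 and Klf6 with 1 each. Klf13 had a member with 13 reads in both WT libraries, and the Tcf7 members had 8 and 13 and 8 and 9 reads. Satb1, Bach2 and Foxp1 held 28 of the 43, and all 43 lay outside dense windows.

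The rest of the list did not stand apart. The other 13 genes of the list had 15 members among 382 regions (3.93%), against 1, 4, 13 and 18 in the crossed pairs. The resting and naive list thus owed its high share to Satb1, Bach2 and Foxp1, which were singled out after their values were seen. Il7r, S1pr1 and Klf2 had no member.

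Genes of T cell receptor signalling had 16 members among 332 regions (4.82%), against 0, 3, 8 and 10 in the crossed pairs and 1 in the Il2ra mut/mut pair. They were at 10 of 19 genes, against 0, 3, 6 and 7 genes in the crossed pairs. Cd28, the costimulatory receptor, had 4, Cd6 had 3 and Cd5, an inhibitory coreceptor, had 2. The Cd28 member 1.60 kb downstream of the TSS had 9 and 11 reads. T cell lineage factors had 31 among 519 regions (5.97%), but WT2 and MUT2 shared 34 there, and 10 of the 31 were at Ets1. Tox had 5, one of them with 10 and 19 reads 516 kb upstream, and Runx1, Gata3 and Tcf12 had 3 each. At that Tox region 75% of the 31-base words tested occur more than once in the genome, so its reads may belong to other copies. For the lineage list the WT pair thus did not stand above all crossed pairs.

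The IL-2 receptor and JAK-STAT5 list had 10 members among 270 regions (3.70%), against 0, 4, 7 and 11 in the crossed pairs. They were at Bcl2, the survival gene, with 4, at Myc with 3, and at Jak1, Socs1 and Pim1 with 1 each. The Bcl2 region printed above had 8 reads in WT1 and 19 in WT2, and the other 3 had 8 or 9 in WT1 and 10 or 11 in WT2. Il2ra, the mutated gene, was the closest gene to 19 regions and to 0 members, and had 11, 14, 13 and 18 called regions in WT1, WT2, MUT1 and MUT2. Il2rb, Jak3, Stat5a, Stat5b, Cish, Socs2 and Socs3, with 1 to 18 regions each, had no member either. Since 16.0% of all genes with a region had a member, a gene without one was the usual case. The gene of the common gamma chain is on the X chromosome, which was not used here.

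Treg identity genes had 5 members among 258 regions (1.94%), below the 2.64% over all regions: 2 at Ikzf2 (Helios) and 1 each at Nrp1, Izumo1r and Nt5e. At the Ikzf2 member at chr1:69626215-69626508, 87.5% of the 31-base words tested occur more than once, so its reads may belong to other copies. The Nrp1 member, 193 kb upstream, was among the stronger ones with 19 reads in WT1 and 15 in WT2. Effector Treg genes had 21 among 790 (2.66%), of which 13 were at Rora, against 12, 13, 17 and 31 in the crossed pairs and 28 in the Il2ra mut/mut pair. Activation-induced factors had 7 among 233 (3.00%) and chemokine receptors and adhesion molecules 6 among 199 (3.02%), with 11 and 13 in WT2 and MUT2. Klrg1, an effector marker, had 0 members and 4 regions of the Il2ra mut/mut pair. Markers of other cells had 2 members among 99 regions (B cell, both at Ebf1), 0 among 8 (myeloid) and 0 among 27 (CD8 T and NK cells).

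**Figure D4:**
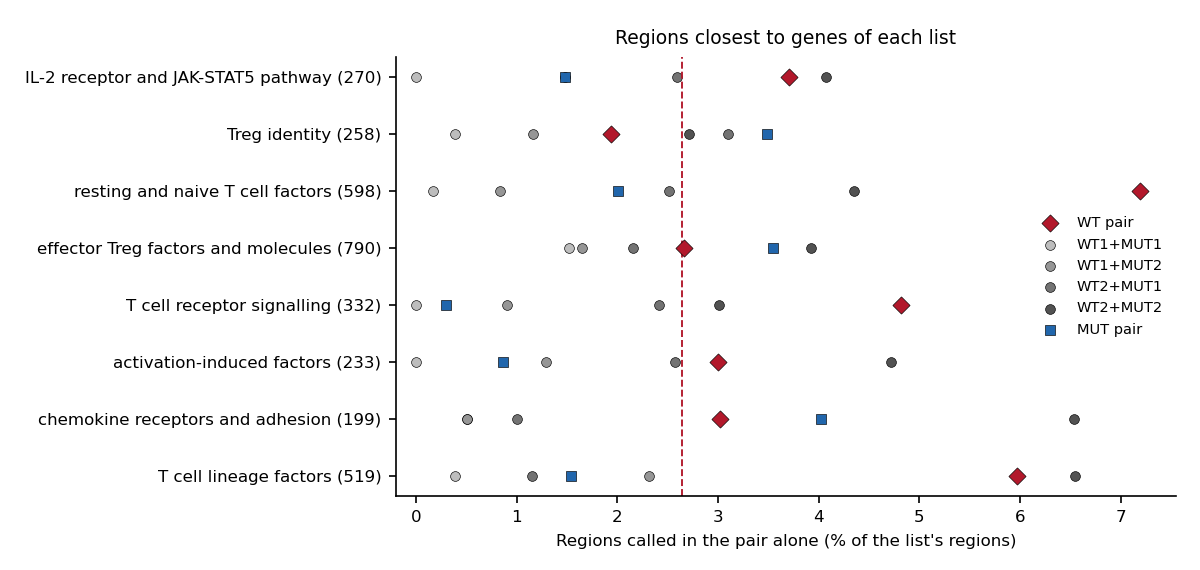
Share of the regions closest to the genes of each list (x axis, percent; number of regions in parentheses) that were called in exactly the 2 libraries of a pair (diamonds, WT pair; circles, crossed pairs; squares, Il2ra mut/mut pair). The dashed line is the share of members over all regions (2.64%); the resting and naive list has the highest WT-pair share (7.19%).

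The sequence around the members' summits was poorer in G and C (median 46.8%) than in the crossed pairs (47.3 to 48.3%) and in regions called in all 4 libraries (52.2%). Outside dense windows it was 47.8% in members and 47.3 to 48.8% in the crossed pairs, so that the members no longer stood below them. The TCF-LEF word was in 4.44% of members (3.98 to 4.94), against 3.06 to 3.42% in the crossed pairs, 3.24% in the Il2ra mut/mut pair and 3.20% in regions called in all 4. Since this word is rich in A and T, it was also counted by GC content. Under 45% GC the share was 5.92% (5.09 to 6.86) in members and 3.47 to 4.54% in the crossed pairs, but 6.03% in regions called in all 4. At 45 to 55% GC it was 3.78% (3.21 to 4.45) in members, 2.79 to 3.35% in the crossed pairs and 3.78% in regions called in all 4. Over 55% GC it was 1.98% (1.16 to 3.36) in members, 0.825 to 1.75% in the crossed pairs, 1.99% in the Il2ra mut/mut pair and 1.20% in regions called in all 4. The share was thus higher in members than in the crossed pairs in each GC class. The members' interval covered crossed pairs in the second and the last class, and lay above all of them only under 45% GC. In the first and second class the share was close to that in regions called in all 4 libraries.

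The RUNX word was in 5.73% of members (5.22 to 6.30), against 4.50 to 5.43% in the crossed pairs and 7.86% in regions called in all 4. The ETS word was in 11.9% (11.1 to 12.7), against 9.51 to 12.3% and 18.2%, and the CTCF word in 4.10% (3.66 to 4.59), against 2.87 to 4.09% and 6.99%. The AP-1 word TGANTCA was in 6.51% (5.96 to 7.11), against 6.46 to 7.49%, and outside dense windows in 6.32% of members (5.53 to 7.20), 6.31%, 6.57%, 8.14% and 7.94% of the regions of the crossed pairs and 9.18% of those of the Il2ra mut/mut pair. The STAT word was in 6.33% (5.78 to 6.92), against 5.51 to 6.50%, and the FOXO word in 2.85%, against 2.48 to 2.92%. The KLF word was in 12.6%, the NF-kB word GGAAANTCC in 0.648%, the E-box CAGCTG in 11.3% and the CRE TGACGTCA in 0.155%. For ETS and CTCF the pair of WT2 and MUT2 was again the one nearest to the members (12.3% and 4.09%).

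**Figure D5:**
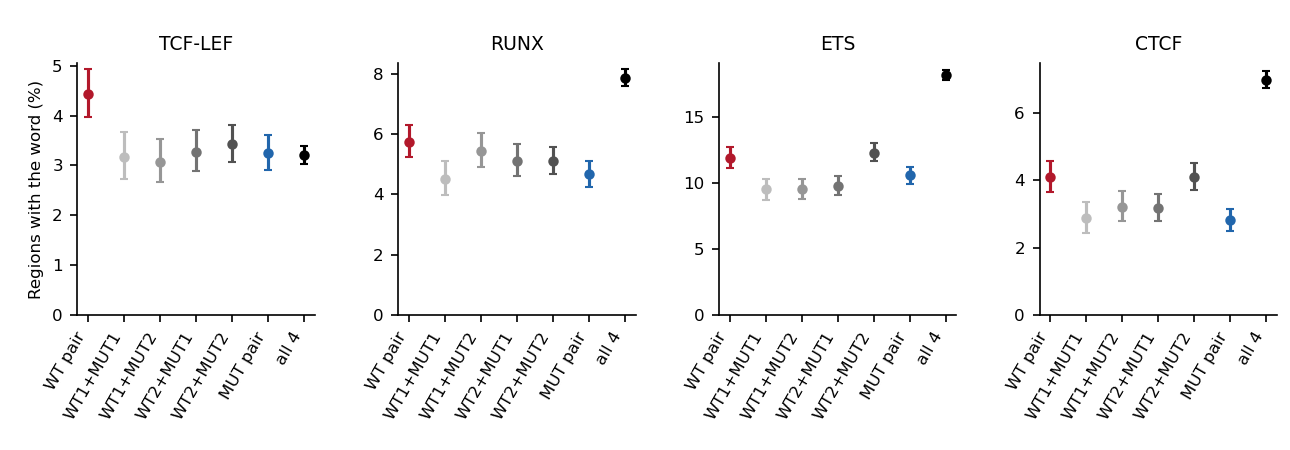
Share of regions with a word within 100 bp of the summit (y axis, percent) in regions called in exactly the 2 libraries of a pair or in all 4 (x axis), with 95% Wilson intervals. TCF-LEF is at 4.44% in the WT pair and at 3.06 to 3.42% in the crossed pairs, while ETS and CTCF in the WT pair lie beside WT2+MUT2 and below the regions called in all 4.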

How the data were processed

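ATAC-seq peak lists of LN Treg cells were used, 2 libraries each from WT and Il2ra mut/mut mice. The authors trimmed the reads (Trim Galore, 0.3.7), aligned them to mm10 with BWA (0.7.13), removed duplicates (Picard, 1.92; SAMtools, 0.1.19), shifted the reads and called narrow peaks per library with MACS2 (2.1.0), with roles taken from their methods and versions from the submitters' processing notes. Each deposited list gives peak and summit positions with the authors' fold enrichment, −log10 p and −log10 q per peak, besides a score derived from q. Depth is not given, so intervals cover counting error only. The lists were not compared as amounts between libraries, and the IDR filter of the methods was not applied, since regions are defined here by the calls.

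Peaks were merged by an overlap of 1 bp, placed on GENCODE vM21 basic annotation (GRCm38) and assigned to the closest TSS of a protein-coding gene. Reads at a summit were recovered from the fold enrichment as a whole number, which succeeded for 100% of peaks. Percentile ranks were taken within a library. Words were searched within 100 bp of the summit of the peak with the higher rank, on both strands, and repeats were counted as 31-base words occurring more than once. Python (3.11.15), numpy (2.4.6), pandas (2.3.3), scipy (1.17.1) and matplotlib (3.10.9) were used, and the merging, placing and word steps were tested on made-up intervals (11 of 11 checks passed).

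The named items are the 12 genes closest to most members, the 12 strongest members, the 6 strongest within 1 kb of a protein-coding TSS, up to 3 per gene list and the 3 longest runs. Genes outside dense windows and sequences were chosen after their values were seen. The members, lists and rules were chosen with earlier results of these data known. No test was run, because the calls chose the members and regions of 1 library are not replicates. Alternatives were equal numbers of peaks, a −log10 q of at least 3, an overlap of 50% of the shorter peak, each library left out, other annotation, midpoints, gene limits, gaps, fold enrichment, windows and summits, and, added later, no dense windows.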

Additional observations from a re-analysis of the deposited data

How the results depend on the processing

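No paired analysis was possible because the results come from no test and the replicate numbers only name the libraries. With a −log10 q of at least 3 there were 3299 members and 223 genes with 3 or more, 9.43% lay within 1 kb of a TSS, 38.6% lay between genes, 40.7% had a lower rank over 50, and the ETS, CTCF and RUNX words were in 14.2%, 5.64% and 6.70%. The share over 50 was 15.6% with equal numbers of peaks and 14.4% with an overlap of 50%, which also gave 7.93% within 1 kb. Protein-coding genes alone gave 4.59% within 1 kb, 36.8% in introns and 51% between genes, and midpoints gave 6.16% within 1 kb and 41.1% in introns. Genes numbered 285 at 5 or more members and 196 within 50 kb. Within 50 bp of the summit ETS was in 6.93%, TCF-LEF in 2.16%, CTCF in 2.41% and RUNX in 3.07%. Without dense windows, chosen after seeing the data, 3246 members and 199 genes were left, with 12% within 1 kb, 32.7% between genes, 21.7% over 50, and ETS in 15.7%, CTCF in 6.01% and RUNX in 7.49%.

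Leaving out 1 library gave 11394 to 48725 regions, 704 to 2720 genes, 5.36 to 8.48% within 1 kb, 38.4 to 39.9% in introns, 40.8 to 45.8% between genes, 15.8 to 21.6% over 50, and ETS in 9.14 to 12.8%, TCF-LEF in 3.77 to 3.98%, CTCF in 2.64 to 4.75% and RUNX in 4.74 to 5.62%. The higher numbers follow from the looser rule that 3 libraries allow. The TCF-LEF share was under the reported 4.44% without any of the 4.

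Under the other 4 peak settings Satb1 had 8 to 11 members (at most 1 in a crossed pair), Tgfbr3 9 (0), Bach2 6 to 9 (at most 3), Foxp1 6 to 12 (at most 5) and Ets1 4 to 10, with the 4 at a −log10 q of at least 3, and the resting and naive list 33 to 47 (at most 26). Members ranking over 75 exceeded every crossed pair under each, but with a −log10 q of at least 3 only by 158 to 155, and the Il2ra mut/mut pair then had 189. Without 1 library Satb1 had 12 to 24 regions, Tgfbr3 9 to 13, Bach2 9 to 24, Foxp1 10 to 27, Ets1 12 to 27 and the resting and naive list 54 to 156, the highest without WT1 (at Ets1 27 also without WT2), and 261 to 946 ranked over 75, the highest without WT2. The unknown depth limits every count.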

Other observations

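With Satb1, Tgfbr3, Bach2 and Foxp1 included, 14 genes had at least 5 members and more than 2 times as many as any other pair, a choice made after the values were seen. As many genes led in this way for WT2 and MUT2 (14), fewer for the other crossed pairs (2, 3 and 6) and more for the Il2ra mut/mut pair (69). Among the 14 were Fyb, an adaptor of T cell receptor signalling, with 5 of 30 regions, Nrip1, a nuclear receptor corepressor, with 5 of 47, and Ugcg, the first enzyme of glycosphingolipid synthesis, with 5 of 25. The rest were Gsc with 11 of 134, Serpina3m with 7 of 49 and Sh3gl2 with 7 of 147. In addition, 3110018I06Rik, Cavin4, Pcdh7 and Serpina1e had 5 each. The Ugcg summits held 9 to 11 reads in WT1 and 7 to 26 in WT2, and those of Nrip1 7 to 10 and 8 to 16.

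By 1 Mb window, 163 windows held 10 or more members, and 147 of these were dense windows. This was the lowest number of any pair, with 177, 196, 207 and 226 windows in the crossed pairs and 271 in the Il2ra mut/mut pair. Of the 163 windows, 36 held more members than regions of every crossed pair, but only 4 held over 2 times as many. These were chromosome 12 at 104 to 105 Mb, chromosome 5 at 107 to 108 Mb (Tgfbr3), chromosome 4 at 32 to 33 Mb (Bach2) and chromosome 11 at 79 to 80 Mb (Rab11fip4), with 54, 14, 11 and 10 members. The first holds the Serpina cluster and Gsc. It is a dense window of 513 regions, of which 232 were called in WT1, 295 in WT2, 113 in MUT1 and 166 in MUT2, and Serpina3m had 7 members against at most 1 in any crossed pair. Its members closest to Gsc held 6 to 12 reads at the summit, with a median of 7 in both WT libraries.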
